A study of Mus musculus with 8 samples.

Results

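Protrudin, encoded by Zfyve27, and 9 genes of proteins that shape the tubules of the endoplasmic reticulum (ER) or are mutated in hereditary spastic paraplegia were followed in the hippocampus of Wfs1 mutant mice. The 10 genes were Zfyve27, Rtn1, Rtn3, Rtn4, Reep1, Reep5, Arl6ip1, Atl1, Atl2 and Spast, each taken by an exact match of its symbol among the 24078 entries of the deposited count table, and all 10 passed the low-count filter. Zfyve27 was chosen by its fold change between these same libraries, and the other 9 were placed beside it for their roles with results of this comparison already known. Differences between genotypes are therefore given for the 10 genes as a description, with no p-value.

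The samples were 4 mice homozygous for the Wfs1tm1Koks mutation (replicates 15, 16, 17 and 18) and 4 wild-type mice (replicates 7, 8, 9 and 10), with 1 strain name recorded for both genotypes, each library from 1 animal, and age and sex not given in the sources used here. Wfs1 encodes wolframin, an ER membrane glycoprotein whose loss causes Wolfram syndrome in humans. Total RNA of the hippocampus, freed of ribosomal RNA, was read on SOLiD 4 as pairs of 50 and 35 bp. Library totals were 3250949 to 5077114 counts in homozygous and 3296309 to 6747411 counts in wild-type animals.

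The ER of neurons runs as a network of tubules along the axon to its terminals. Hairpin proteins such as the reticulons and the REEP proteins wedge into the outer leaflet and bend the membrane into tubules, atlastins fuse tubules into junctions, and spastin cuts the microtubules on which the tubules ride. Protrudin is an ER membrane protein with its own hairpin region and a lipid-binding FYVE domain. It binds spastin and other ER-shaping proteins, and at contact sites it loads the motor kinesin-1 onto late endosomes, which promotes outgrowth of neurites. Dominant or recessive mutations of several of these genes cause hereditary spastic paraplegia, a degeneration of the longest motor axons.

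Of the 10 genes, 9 had a promoter in the RefSeq table used here (GRCm38.p6), in 13 windows that were read from 250 bases before the start of transcription to 20 bases after it. The window of Zfyve27 is shown because this gene differed most between genotypes. It lies at chr19:42170317-42170586 on the plus strand, inside the annotated span of the gene, which begins upstream at position 42163951 (GENCODE M21). The start of transcription in this window is therefore not the first base of that span. Capitals mark TGACGTCA, the full cyclic AMP response element, which ran from base -6 to base 2 with the start of transcription as base 1. The window of Arl6ip1, the gene with the least spread between animals, is shown for comparison, at chr7:118129606-118129875 on the minus strand, with its CCAAT boxes in capitals (ATTGG is CCAAT on the other strand).
Zfyve27: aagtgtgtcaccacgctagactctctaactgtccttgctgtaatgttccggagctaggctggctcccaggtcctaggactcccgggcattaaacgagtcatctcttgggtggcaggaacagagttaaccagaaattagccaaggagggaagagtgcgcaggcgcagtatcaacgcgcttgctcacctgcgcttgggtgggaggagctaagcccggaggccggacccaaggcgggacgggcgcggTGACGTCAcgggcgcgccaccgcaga
Arl6ip1: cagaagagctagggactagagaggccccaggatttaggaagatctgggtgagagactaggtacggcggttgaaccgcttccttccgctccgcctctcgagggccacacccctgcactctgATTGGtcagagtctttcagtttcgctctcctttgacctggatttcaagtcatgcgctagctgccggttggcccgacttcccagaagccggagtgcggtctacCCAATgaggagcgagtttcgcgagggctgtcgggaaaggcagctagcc

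Both strands of every window were searched for 6 motifs. TGACGTCA was found in 1.73% of 32851 RefSeq windows and, among the 9 genes with a window, in that of Zfyve27. CCAAT, held by 35.4% of windows, was present in windows of Arl6ip1, Rtn4, Rtn1 and Atl2. TGACGTGG, the element bound by ER stress factors, the longer ER stress element ERSE, the E-box CACGTG and the TATA box TATAAA were found in none of the 13 windows, and 0.636%, 0.116%, 6.57% and 12.9% of all windows held them. A match is a match of letters, and binding was not measured.

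Wfs1 was counted at 16.3, 17.7, 13.3 and 12.03 CPM (counts scaled to library size with TMM factors) in homozygous replicates 15, 16, 17 and 18, against 54.6, 47.5, 61.3 and 44.6 CPM in wild-type replicates 7, 8, 9 and 10. All 6 markers of hippocampal fields were measured, with summed levels of 346 to 788 CPM in homozygous and 424 to 573 CPM in wild-type libraries. The genotypes differed widely: 8409 of 20478 genes tested, 41.1%, passed an adjusted p of 0.05 in edgeR, with 4241 higher and 4168 lower in homozygous libraries. With library totals as the only scaling, 6645 were higher and 2412 lower, and the median over all genes was 0.25 on the log2 scale in place of 0.05 under TMM. Neuron markers summed to 1069 to 1249 CPM in homozygous and 1532 to 2167 CPM in wild-type libraries, 4 of 5 being lower and 1 higher. Oligodendrocyte markers summed to 702 to 860 CPM in homozygous and 940 to 1579 CPM in wild-type libraries, 4 of 5 being lower. Astrocyte markers summed to 611 to 816 CPM in homozygous and 810 to 1033 CPM in wild-type libraries, 3 of 5 being lower, and no marker of these lists was at 0. Of microglia markers 1 of 5 was lower and of endothelial markers 1 of 4, while no marker of choroid plexus, striatum or thalamus was called. Of the 6 hippocampal field markers 1 was higher and 2 lower. Among all genes 20.4% were called lower, and 55.1% in the highest of 10 equal classes by mean CPM. In bulk tissue, fewer cells of a type and less RNA per cell cannot be told apart, and the part of these cell types in the results below was not tested.

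Zfyve27 was counted far less often in homozygous than in wild-type hippocampus, where its level was very high. Counts were deposited per gene symbol, so whether the wild-type reads spread over the gene or pile up at 1 site was not tested, and the wild-type level and the fold change carry that limit. The gene was counted at 108, 118, 114 and 99.8 CPM in homozygous replicates 15, 16, 17 and 18, against 10933, 13804, 15928 and 8082 CPM in wild-type replicates 7, 8, 9 and 10. The highest homozygous library lay far below the lowest wild-type library. The means were 110 ± 8.01 CPM in homozygous and 12187 ± 3417 CPM in wild-type mice (SD, n = 4 each), and the log2 fold change was -6.79 (SE 0.31). These values rest on 340 to 609 counts per homozygous library and 38419 to 99287 counts per wild-type library, or 0.0104% to 0.0125% of all counts in homozygous and 0.788% to 1.47% in wild-type animals. The log2 fold change was -6.64 to -6.95 when single libraries were left out. It was -6.09 with the trend of fold change on abundance removed and -6.15 with the same correction on counts per kilobase (the per-kilobase trend).

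Zfyve27 was one of the most counted genes in wild-type libraries and ranked far lower in homozygous libraries. Levels of this order were not peculiar to it or to wild-type. Srprb averaged 10262 CPM in wild-type libraries, and Pm20d2 13891 CPM and Sesn2 9361 CPM in homozygous libraries. By mean CPM Zfyve27 ranked 1439 of 20478 in homozygous libraries and 3 in wild-type libraries, where the ribosomal precursor locus Rn45s and Lars2 were counted more often. Those loci also moved with genotype: Rn45s held 2.29% to 3.77% of counts in homozygous and 4.99% to 6.82% in wild-type libraries, and their part in the result was not tested. Per kilobase of its 8623 bp of annotated exon it averaged 12.7 ± 0.929 CPM in homozygous mice, against 1413 ± 396 CPM in wild-type mice. Relative to the summed CPM of the other 9 genes, Zfyve27 stood at 0.0857 to 0.106 in homozygous libraries and at 4.5 to 8.16 in wild-type libraries. Animals of one genotype also differed more in wild-type: the coefficient of variation was 7.29% over homozygous and 28.0% over wild-type animals. The medians of genes in the top of 10 equal abundance classes were 13.65% over homozygous and 11.15% over wild-type animals. Zfyve27 is at positions 42163951 to 42194590 of chromosome 19 (mm10, GENCODE M21), on the plus strand. The 6 tested genes within 100 kb do not overlap it. The 8 annotated transcripts of Zfyve27 were counted together, so isoforms of protrudin cannot be separated.

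**Figure D1:**
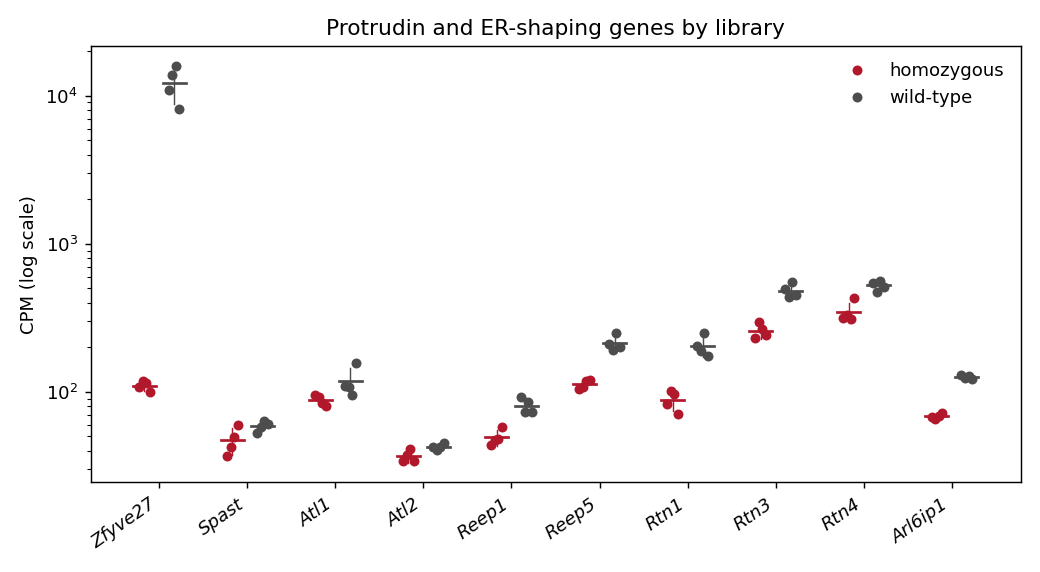
CPM of the 10 genes in each library on a log scale, homozygous in red and wild-type in grey, with points for animals, horizontal bars for means and thin lines for ± 1 SD (n = 4 each). Zfyve27 sits near 110 CPM in homozygous libraries and at 8082 CPM or more in every wild-type library, while the other genes differ far less.

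The reticulons among the 10 genes, hairpin proteins that form ER tubules, were lower in homozygous libraries. A further reticulon, Rtn2, belongs to a list below and was not called (log2 fold change -0.32, SE 0.15). Rtn1 (mm10 chromosome 12, 72211752 to 72409054, minus strand), a reticulon of neurons and neuroendocrine cells, was counted at 83.4, 102, 96.0 and 71.0 CPM in homozygous replicates 15, 16, 17 and 18, against 205, 189, 248 and 174 CPM in wild-type replicates 7, 8, 9 and 10. Its groups did not overlap, and its log2 fold change of -1.21 (SE 0.16) was the largest after Zfyve27. Rtn3 (chromosome 19, 7425901 to 7483281, minus strand), also a receptor for the degradation of ER tubules by autophagy, had 230, 298, 265 and 242 CPM in homozygous replicates and 493, 436, 552 and 450 CPM in wild-type replicates in the same order. Again every homozygous value was under every wild-type value, and the log2 fold change was -0.90 (SE 0.14).

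Rtn4 (chromosome 11, 29692947 to 29744331, plus strand), which includes the neurite growth inhibitor Nogo-A of oligodendrocytes and neurons, was the most abundant of the 9 by CPM. It had 316, 329, 312 and 427 CPM in homozygous replicates 15, 16, 17 and 18, against 542, 473, 562 and 514 CPM in wild-type replicates 7, 8, 9 and 10. Homozygous replicate 18 stood above the other 3 homozygous libraries and still below all wild-type libraries. The log2 fold change was -0.60 (SE 0.15), and it was -0.72 without that library. It was -0.06 with the abundance trend removed and -0.08 with the per-kilobase trend removed. Eml6 overlaps Rtn4 on the opposite strand, and the strand setting of the counting was not given in the sources used here.

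Reep1, Reep5 and Arl6ip1, further hairpin proteins, were lower by similar amounts. Reep5 (chromosome 18, 34344885 to 34374070, minus strand), an abundant tubule-shaping protein, was counted at 104, 108, 119 and 120 CPM in homozygous replicates, against 211, 191, 251 and 202 CPM in wild-type replicates (log2 fold change -0.92, SE 0.13). Reep1 (chromosome 6, 71707561 to 71810710, plus strand), which links ER tubules to microtubules and is a spastic paraplegia gene, had 44.0, 47.3, 48 and 57.5 CPM in homozygous and 92.4, 72.6, 85.7 and 72.8 CPM in wild-type replicates (log2 fold change -0.72, SE 0.13). Arl6ip1 (chromosome 7, 118118891 to 118129662, minus strand), whose human gene is also mutated in spastic paraplegia, had 67.1, 65.6, 69.1 and 72.5 CPM in homozygous and 130, 124, 129 and 121 CPM in wild-type replicates (log2 fold change -0.88, SE 0.11). None of these 3 genes had overlapping groups. Arl6ip1 varied least among animals, with a coefficient of variation of 4.33% in homozygous and 3.33% in wild-type mice.

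The atlastins and spastin, the enzymes among the 10, differed least under TMM scaling, though not with either trend removed, where Rtn4 was closest to 0. Atl1 (chromosome 12, 69892614 to 69966417, plus strand), the atlastin most abundant in neurons, was counted at 94.7, 92.1, 83.6 and 79.8 CPM in homozygous replicates 15, 16, 17 and 18, against 110, 108, 95.6 and 157 CPM in wild-type replicates 7, 8, 9 and 10. The ranges nearly met, wild-type replicate 10 stood highest, and the log2 fold change was -0.42 (SE 0.16), or -0.26 without that library. Map4k5 and Sav1 overlap Atl1 on the opposite strand. Atl2 (chromosome 17, 79848390 to 79896123, minus strand), the more widely expressed atlastin, had 33.9, 37.5, 41.4 and 34.3 CPM in homozygous and 42.2, 40.4, 42.2 and 45.02 CPM in wild-type replicates (log2 fold change -0.21, SE 0.11). Spast (chromosome 17, 74338987 to 74391115, plus strand), encoding the microtubule-severing ATPase spastin, had 37.1, 42.7, 49.4 and 59.6 CPM in homozygous and 52.9, 58.0, 64.0 and 60.6 CPM in wild-type replicates (log2 fold change -0.32, SE 0.15). The groups overlapped for both Atl2 and Spast.

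Compared per kilobase of exon, the other 9 genes stood in one order in both genotypes. From high to low the order was Rtn3, Rtn4, Reep5, Arl6ip1, Rtn1, Reep1, Atl1, Spast and Atl2. Rtn3 averaged 51.5 ± 5.96 CPM per kilobase in homozygous and 96.1 ± 10.4 in wild-type mice, and Atl2 averaged 3.74 ± 0.349 in homozygous and 4.31 ± 0.196 in wild-type mice. Rtn3 and Rtn4 (49.5 ± 7.82 CPM per kilobase) lay within their spread of each other in homozygous mice. Rtn4 (74.8 ± 5.48) and Reep5 (67.8 ± 8.38) did so in wild-type mice, and Atl1 and Spast did so in both genotypes (9.54 ± 0.762 and 7.66 ± 1.57 in homozygous mice, 12.8 ± 2.93 and 9.55 ± 0.758 in wild-type mice). Zfyve27 stood between Rtn1 (17.7 ± 2.76) and Reep1 (11.97 ± 1.42) in homozygous mice, within its spread of Reep1, and above all 9 in wild-type mice. The summed level of the 9 genes was 1095 ± 65.4 CPM in homozygous and 1848 ± 143 CPM in wild-type mice. Of that sum Rtn4 made up 31.5% ± 3.61 in homozygous and 28.3% ± 0.536 in wild-type libraries, Rtn1 8.07% ± 1.36 in homozygous and 11% ± 1.04 in wild-type, and Atl2 3.37% ± 0.356 in homozygous and 2.31% ± 0.184 in wild-type.

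Of the 9 genes, 6 were called lower (Rtn1, Rtn3, Rtn4, Reep1, Reep5 and Arl6ip1), none higher and 3 were not called, where 20.4% of all genes tested were called lower and 20.7% higher (edgeR, Benjamini-Hochberg). In 7 of the 9 the homozygous values all lay below the wild-type values, where 18.8% of all genes did and 37.6% were apart in either direction. Since these genes were chosen with this comparison known, nothing is read from those counts or from their calls in other settings. With library totals as the only scaling the same 6 were called, where 11.8% of all genes were called lower and 32.4% higher.

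Fold changes followed abundance in these libraries. In the lowest of the 10 abundance classes the median on the log2 scale was 0.30, and in the highest it was -0.46, with 12.65% of genes higher and 55.1% lower. Rtn1, Rtn3, Rtn4, Reep5, Arl6ip1 and Atl1 belonged to that highest class, as did Zfyve27. Reep1 was in class 9, Spast in class 8 and Atl2 in class 7. The median over the 9 genes was -0.72, against 0.05 over all genes. Without the abundance trend these medians were -0.39 and -0.02. There Rtn1 (-0.93), Arl6ip1 (-0.69), Reep1 (-0.63), Reep5 (-0.61) and Rtn3 (-0.39) were called lower and Rtn4 was not. Of all genes, 18.2% were called lower in that setting. Without the per-kilobase trend, Rtn1 (-0.85), Reep1 (-0.52), Arl6ip1 (-0.46), Reep5 (-0.44) and Atl2 (-0.385) were called lower and Rtn3 (-0.35) was not, where 18.7% of all genes were called lower.

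**Figure D2:**
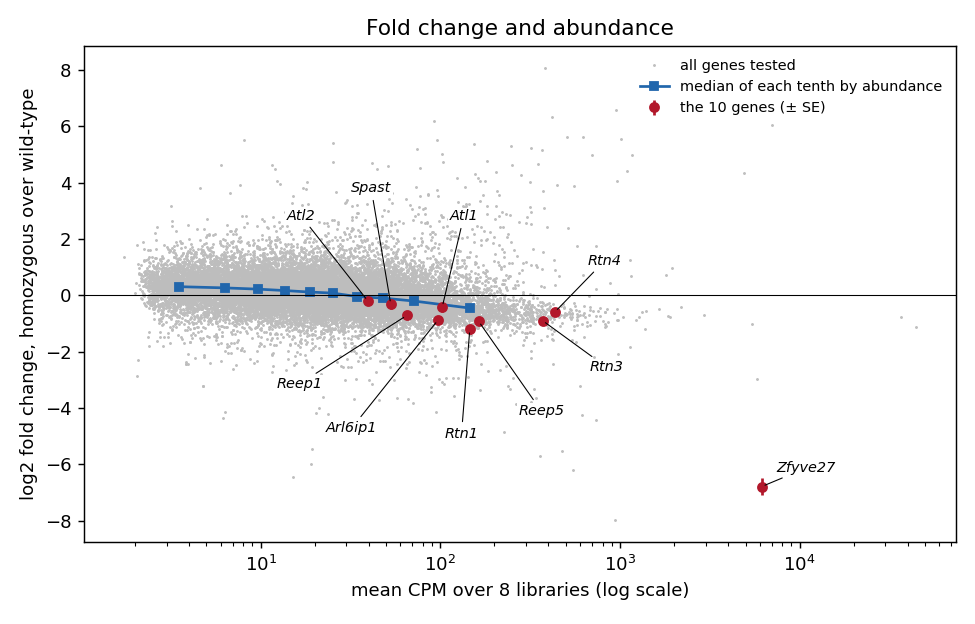
Log2 fold change, homozygous over wild-type, against mean CPM over 8 libraries (log scale) for all 20478 genes tested, with the median of each of 10 abundance classes in blue and the 10 genes in red (± SE). The median is -0.46 in the highest class, and Zfyve27 at -6.79 lies far below the other 9 genes.

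**Figure D3:**
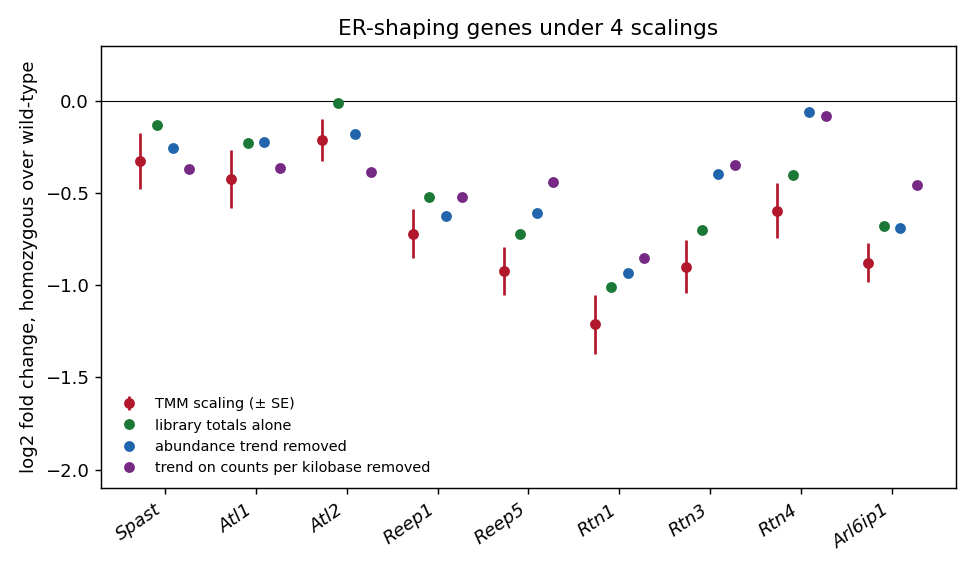
Log2 fold change, homozygous over wild-type, of the 9 genes under TMM scaling (± SE), library totals alone, and with the abundance or the per-kilobase trend removed. Every value is below 0, with Rtn1 lowest under all 4 and Rtn4 near 0 under both trend corrections.

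Other ER-shaping genes, not among the 10, went both ways. Of 18 tested, 7 fell, 2 rose and 9 were not called, where 20.4% of all genes tested were called lower and 20.7% higher. The median log2 fold change was -0.20 against 0.05 over all genes. Rab10, a small GTPase at growing ER tubules, fell to 115 ± 17.5 CPM in homozygous mice, against 208 ± 9.31 CPM in wild-type mice (log2 fold change -0.85, SE 0.13, adjusted p 0.000765 in edgeR). Fam134a, with a reticulon-like domain (log2 fold change -0.84, SE 0.15), and Arl6ip5, a reticulon-like ER protein that restrains glutamate transporter traffic (-0.86, SE 0.15), also fell. Tmem170, named Tmem170a in newer annotation and tied to ER sheets, rose to 19.9 ± 2.39 CPM in homozygous mice, against 10.4 ± 1.01 CPM in wild-type mice (log2 fold change 0.93, SE 0.15, adjusted p 0.000978). Rtn2, Reep2, Reep3, Reep6 and Atl3, paralogues of the 10 genes, were not called, though Reep3 (0.36) and Reep6 (0.64) were called higher with library totals alone. Reep4, another paralogue, was called lower (-1.57), with its values given below. With library totals alone 6 of the 18 were lower and 5 higher, where 11.8% of all genes were lower and 32.4% higher. Without the per-kilobase trend Arl6ip5 was not called (-0.40, adjusted p 0.0619 in edgeR).

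A pair of genes in this list was singled out after its values were seen. Fam134b, the receptor that delivers ER sheets to autophagy, rose, with 175, 144, 250 and 571 CPM in homozygous replicates 15, 16, 17 and 18, against 81.2, 72.6, 77.8 and 64.6 CPM in wild-type replicates 7, 8, 9 and 10. The groups did not overlap, and homozygous replicate 18 was highest, so that the log2 fold change of 1.94 (SE 0.37) became 1.35 without it. Reep4, which in human cells keeps ER away from mitotic chromosomes, fell, with 9.01, 5.23, 10.4 and 5.28 CPM in homozygous and 18.4, 15.3, 19.7 and 36.2 CPM in wild-type replicates (log2 fold change -1.57, SE 0.31).

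Under TMM scaling most genes of proteins that work with protrudin were called lower. Of 11 tested, 7 fell, 1 rose and 3 were not called, where 20.4% of all genes were called lower and 20.7% higher. Fkbp8, the Kif5 genes, Pdzd8, Rab11b and Vapb lay in the highest abundance class, where 55.1% of genes were called lower. The median log2 fold change was -0.46 against 0.05 over all genes, but -0.03 against -0.02 without the abundance trend and -0.05 against -0.04 without the per-kilobase trend. Fkbp8, an immunophilin that binds protrudin, fell to 117 ± 14.6 CPM in homozygous mice, against 237 ± 17.5 CPM in wild-type mice (log2 fold change -1.02, SE 0.13, adjusted p 0.000267 in edgeR). Vapa, an ER contact-site receptor that binds protrudin, had a log2 fold change of -0.72 (SE 0.12), and Rab11a, the recycling-endosome GTPase, one of -0.66 (SE 0.11). Fyco1, the adaptor that couples late endosomes to kinesin-1, rose to 58.4 ± 7.36 CPM in homozygous mice, against 39.2 ± 2.40 CPM in wild-type mice (log2 fold change 0.58, SE 0.12, adjusted p 0.00404). Kif5a, Kif5b and Kif5c, the kinesin-1 heavy chains, were called lower (-0.55, -0.46 and -0.63). None of these 3 was called with the abundance trend removed, where Kif5a was 0.05, Kif5b 0.003 and Kif5c -0.04, and Kif5a (-0.35) and Kif5b (-0.27) were not called with library totals alone. With the abundance trend removed 4 of the list were lower and 1 higher, where 18.2% of all genes were lower and 16.9% higher. With library totals alone 4 were lower and 1 higher, where 11.8% of all genes were lower and 32.4% higher. Without the per-kilobase trend 2 were lower and 1 higher, where 18.7% of all genes were lower and 15.5% higher. Rab11a was -0.29 in that last setting (adjusted p 0.0563 in edgeR).

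Among other genes of the FYVE domain family, whose products bind a phosphoinositide of endosomes, log2 fold changes ran from -0.74 to 0.75. Of 24 tested, 5 fell, 3 rose and 16 were not called, a share of lower calls near the 20.4% of all genes. The median log2 fold change was -0.11 against 0.05 over all genes. It was 0.09 against 0.25 with library totals alone and -0.13 against -0.04 without the per-kilobase trend. Of these settings, only removal of the abundance trend put it above all genes, at 0.09 against -0.02. Eea1, the tether of early endosomes, fell to 82.6 ± 5.90 CPM in homozygous mice, against 134 ± 17.4 CPM in wild-type mice (log2 fold change -0.70, SE 0.13, adjusted p 0.00194 in edgeR). Zfyve21, a protein of focal adhesions (log2 fold change -0.74, SE 0.20), and Mtmr3, a phosphoinositide phosphatase (-0.52, SE 0.14), also fell. Wdfy1 rose to 102 ± 20.6 CPM in homozygous mice, against 67.5 ± 5.79 CPM in wild-type mice (log2 fold change 0.60, SE 0.15, adjusted p 0.00897). With library totals alone 2 were lower and 6 higher, where 11.8% of all genes were lower and 32.4% higher. Mtmr3 was not called in that setting (-0.32) or without the abundance trend (-0.35).

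Other genes of hereditary spastic paraplegia were called about as often as all genes. Of 44 tested from 46 listed, 15 fell, 3 rose and 26 were not called, where 41.1% of all genes were called in either direction, 20.4% lower and 20.7% higher. The median log2 fold change was -0.26 against 0.05 over all genes. Spg20, encoding spartin of endosomes and lipid droplets, rose to 142 ± 21.4 CPM in homozygous mice, against 43.3 ± 6.95 CPM in wild-type mice (log2 fold change 1.72, SE 0.16, adjusted p 3.08e-05 in edgeR). Hspd1, the mitochondrial chaperonin, fell (-0.57, SE 0.13) but was not called without the per-kilobase trend (-0.24, adjusted p 0.123). With library totals alone 3 of the 44 were lower and 7 higher, where 11.8% of all genes were lower and 32.4% higher. Without the abundance trend 9 were lower and 5 higher, where 18.2% of all genes were lower and 16.9% higher.

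**Figure D4:**
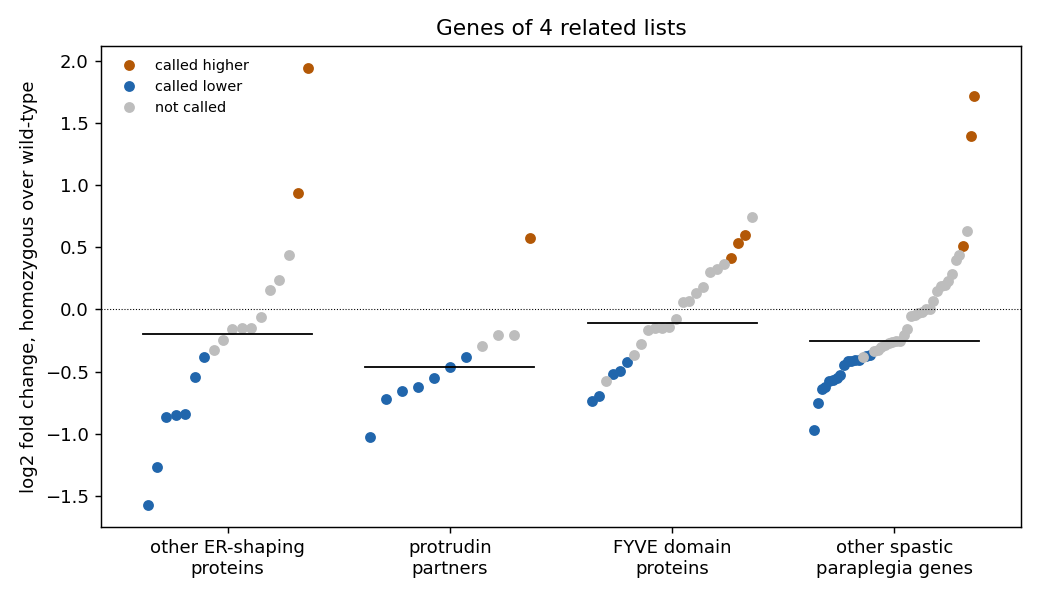
Log2 fold change, homozygous over wild-type, of each gene in 4 related lists, ordered within a list, with genes called lower in blue, called higher in orange and not called in grey, and black bars at the list medians. No gene in these lists comes near the -6.79 of Zfyve27: the lowest is Reep4 at -1.57 and the highest Fam134b at 1.94.

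None of the 6 tested genes within 100 kb of Zfyve27 on chromosome 19 differed as much as it did. Marveld1, whose end lies 12248 bp before Zfyve27, was counted at 16.6, 69.4, 23.4 and 10.9 CPM in homozygous replicates and 15.4, 16.3, 15.1 and 10.1 CPM in wild-type replicates, with no call (log2 fold change 1.07, SE 0.47, and 0.26 without homozygous replicate 16). It was called higher with library totals alone (1.27) and without homozygous replicate 18 (1.33). Sfrp5, a secreted Wnt antagonist on the minus strand whose nearer boundary, its 3′ end, lies 3381 bp beyond Zfyve27, had 12.2, 7.84, 15.9 and 17.3 CPM in homozygous and 10.9, 15.6, 11.7 and 14.1 CPM in wild-type replicates, with no call (log2 fold change 0.03, SE 0.23). Farther off, Golga7b was higher, at 127 ± 32.0 CPM in homozygous mice against 77.4 ± 6.99 CPM in wild-type mice (log2 fold change 0.71, SE 0.18, adjusted p 0.00846 in edgeR). Morn4 was lower, at 18.9 ± 3.44 CPM in homozygous mice against 36.9 ± 2.49 CPM in wild-type mice (-0.96, SE 0.15, adjusted p 0.000713). Pi4k2a was called lower by a small margin (-0.31, SE 0.11, adjusted p 0.0464) and lost the call without any of 6 single libraries, wild-type replicates 7, 8 and 9 and homozygous replicates 15, 16 and 17. It was also not called with library totals alone (-0.11), without the abundance trend (-0.20) or without the per-kilobase trend (-0.28), while Avpi1 was not called (-0.26, SE 0.37).

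**Figure D5:**
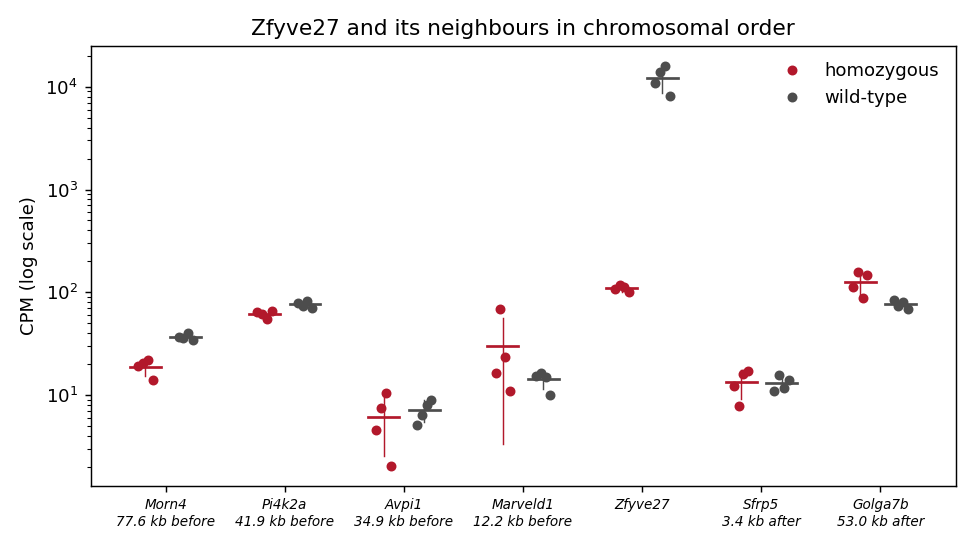
CPM per library on a log scale for Zfyve27 and its 6 tested neighbours within 100 kb, in chromosomal order with the distance to Zfyve27 under each name, homozygous in red and wild-type in grey (points for animals, horizontal bars for means, thin lines for ± 1 SD, n = 4 each). Zfyve27 alone departs by orders of magnitude, at 110 CPM in homozygous against 12187 CPM in wild-type mice.

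A few genes elsewhere in the genome had a profile over the 8 libraries close to that of Zfyve27. Likeness was measured among 20448 genes as the root mean square difference of log2 CPM, each gene centred on its own mean, and is a description with no p-value. The nearest were Cyb5r2 (0.51 log2 units), a cytochrome b5 reductase, Bhlhe41 (0.71), a clock-linked transcriptional repressor, the processed pseudogene Gm9159 (0.74) and the homeobox gene Obox2 (0.78), while the other 9 genes were 2.78 to 3.28 away. For near and far genes alike, the distance mostly restates the fold change by which Zfyve27 was chosen. The nearest genes are thus those with a similarly large drop. Their log2 fold changes were -6.20 for Cyb5r2, -7.97 for Bhlhe41, -5.70 for Gm9159 and -6.47 for Obox2, against -6.79 for Zfyve27. Cyb5r2 was counted at 12.01, 17.7, 14.2 and 14.7 CPM in homozygous replicates 15, 16, 17 and 18, against 1485, 1181, 778 and 856 CPM in wild-type replicates 7, 8, 9 and 10. Bhlhe41 had 7.95, 6.68, 8.10 and 7.05 CPM in homozygous and 702, 4278, 1574 and 957 CPM in wild-type replicates. Among wild-type animals the order differed from gene to gene: Zfyve27 was highest in replicate 9, Cyb5r2 in replicate 7, Bhlhe41 in replicate 8 and Gm9159 in replicate 10. Obox2 rested on 2, 1, 1 and 1 counts in homozygous libraries, against 150, 68, 236 and 127 in wild-type libraries, and has near-identical copies between which reads may be shared. Gm9159 had 12.2, 11.3, 15.9 and 14.97 CPM in homozygous and 715, 624, 558 and 924 CPM in wild-type replicates, and how reads shared with pseudogenes were assigned was not given in the sources used here.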

How the data were processed

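Raw counts for 8 libraries, keyed by gene symbol, were deposited by the authors in 1 table, with mm10 named in the submitters' processing notes. Aligner, counter, strand setting and annotation were not given in the sources used here. That the values are counts was taken from their being whole, with library totals that differ. Columns were matched to animals by title, and no count column was without a listed sample. After filterByExpr 20478 of 24078 entries remained. Genotypes were contrasted, homozygous over wild-type, with TMM factors and the two-sided quasi-likelihood test of edgeR 4.0.16 (R 4.3.3, no covariate), adjusted by Benjamini-Hochberg over every gene tested. A gene at an adjusted p under 0.05 is said to be called, or to have risen or fallen. CPM use TMM-scaled totals with the SD over 4 animals, and SE refers to log2 fold changes. The p-values cover the spread between animals, and not handling that may have gone along with genotype. Exon lengths came from GENCODE M21, with 94.2% of entries matched, and promoters from RefSeq (GRCm38.p6).

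The 10 genes and the 4 related lists were chosen with earlier results of these data known. From each list up to 4 called genes of smallest p are named, besides Wfs1, neighbours within 100 kb and the 4 genes most like Zfyve27 in profile. Fam134b, Reep4 and the Kif5 genes were added after their values were seen. Some genes that this rule selects are left out of the text. Alternatives were other scalings and filters, DESeq2 1.42.0, limma 3.58.1 voom with quality weights, robust dispersion, a threshold of 0.1, removal of an abundance trend (loess, span 0.3) and leaving out each library. A trend on counts per kilobase was added after the data were seen. Simulated counts were used to test the edgeR code.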

Additional observations from a re-analysis of the deposited data

Results flagged for a closer look

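In 4 of 84 groups of 4 libraries, 1 library stood apart from the other 3 by more than Dixon's critical share of the group's range, and chance gives about 5% of groups. Rtn4 was at 427 CPM in homozygous replicate 18, against 312 to 329 CPM in the other homozygous libraries. Kif5b was at 328 CPM in the same library, against 228 to 234 CPM in the other homozygous libraries. Tmem170 was at 23.5 CPM in homozygous replicate 15, against 18.6 to 18.8 CPM in the others. Obox2 was at 0.353 CPM in homozygous replicate 15, against 0.289 to 0.294 CPM in the others, which is a difference between 2 counts and 1 count.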

How the results depend on the processing

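The Zfyve27 log2 fold change was -6.09 with the abundance trend removed and -6.15 with the per-kilobase trend removed, and -6.64 to -6.95 with single libraries left out. Among the other 9 genes 6 or 7 were called with single libraries left out. Atl1 was called without wild-type replicate 8 or 9, and Spast without homozygous replicate 18. Atl1 was also called lower with RLE size factors, no low-count filter, the 1 CPM filter, DESeq2 and robust dispersion, and Spast with limma-voom. Since these genes were chosen with this comparison known, nothing is read from these calls. All 9 stayed below 0 in every setting run, Atl2 reaching -0.01 with library totals alone. Of the protrudin partners 8 were called, 5 with library totals alone, 5 with the abundance trend removed, 3 with the per-kilobase trend removed and 5 to 8 with single libraries left out, the 5 being without wild-type replicate 7 or 9 or homozygous replicate 15. Of the spastic paraplegia genes 18 were called, 10 with library totals alone and 9 to 19 with single libraries left out, 9 without wild-type replicate 7 and 11 without wild-type replicate 9 or homozygous replicate 15. Of the FYVE genes 8 were called, and 4 to 9 with single libraries left out, 4 without wild-type replicate 9 and 5 without wild-type replicate 7 or 10. The cause of these shifts was not tested. Calls over all genes, 8409 in the main fit, also fell, to between 6489 and 8229 with single libraries left out. They were 6545 without wild-type replicate 7, 6489 without wild-type replicate 9 and 7069 without wild-type replicate 10. Without homozygous replicate 15 they were 7052. With library totals alone they were 9057, with the abundance trend removed 7189 and with the per-kilobase trend removed 6882.

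Signs turned for Kif5a (0.0512 with the abundance and 0.0332 with the per-kilobase trend removed), Kif5b (0.003 with the abundance trend removed), Sfrp5 (-0.103 and -0.0829 with those trends removed, -0.12 to 0.20 with single libraries left out) and Avpi1 (-0.62 to 0.0011 with single libraries left out). Bhlhe41 was -7.19 without wild-type replicate 8. No paired analysis was possible because the replicate numbers of the genotypes do not overlap. Depth limited none of the 10 genes to under 117 counts in a library.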
